A study of Homo sapiens with 12 samples.

Results

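MiR-138 (assay hsa-miR-138) and miR-1269 (assay hsa-miR-1269) were 2 of the 501 miRNA assays in the deposited table of qRT-PCR array values from 2 human embryonal carcinoma cell (hECC) lines after SOX2 knock-down. They were taken by assay name, and they had been picked because both rose after SOX2 siRNA in both lines. The rise itself is therefore given as a description, without a test. Both were measured in every group, and 1 value was blank, that of miR-138 in NTera-2 NC replicate 2.

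SOX2 is a transcription factor of the pluripotency network, and the study asked which miRNAs change when it is removed from pluripotent and nullipotent cells. Of the lines, NTera-2 was the pluripotent and 2102Ep the nullipotent one, a term for embryonal carcinoma cells that hardly differentiate. Cells of each line received either an siRNA against SOX2 (siSOX2) or the non-targeting Silencer Select Negative Control siRNA (NC), with 3 biological replicates in each of the 4 groups and 12 samples in all. The 2102Ep cells were transfected with 15 nM siRNA and Lipofectamine 2000, the NTera-2 cells with 30 nM and Lipofectamine RNAiMAX, each for 6 h with RNA taken after a further 72 h, so dose and reagent cannot be told apart from the line. SOX2 mRNA was not on the arrays and is not analysed here. Each sample was a whole culture, so a higher level in all cells and a higher level in some cells cannot be told apart. Of the 501 assays, 422 to 434 were measured in a 2102Ep sample and 449 to 451 in an NTera-2 sample. As a check of the cell type, 8 assays of the embryonal miR-302/367 and miR-371 to miR-373 families were looked at. All were measured in the 6 samples of each line, at a raw Ct of 16.1 to 21.9 in 2102Ep and 13.8 to 27.0 in NTera-2. Detection alone is a weak check, since 418 assays in 2102Ep and 445 in NTera-2 were measured in all 6 samples. Counted from the lowest Ct of the card, their places reached 42 at most in 2102Ep. In NTera-2 miR-371-3p held places 118 to 187 and miR-372 places 65 to 107, and the others 32 or better.

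A miRNA is cut from a hairpin precursor and guides a silencing complex to mRNAs, largely through pairing of its seed, the bases near its 5′ end. MiR-138 is enriched in the brain, where it acts in dendritic spine growth, and it has been described as a repressor of cell migration and of epithelial-mesenchymal transition in several cancers. MiR-1269 was found later, by sequencing of small RNAs, and is best known from liver and colorectal cancer. Neither is a member of the miR-302 or miR-371 families that mark pluripotent cells.

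The mature sequences are shown because the assays measure these strands. They are from RefSeq on GRCh38.p14, written 5′ to 3′ with the seed, bases 2 to 8, in capitals. MiR-1269b is added as the nearest relative, although no assay for it was analysed here.
hsa-miR-138-5p: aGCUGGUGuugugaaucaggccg
hsa-miR-1269a: cUGGACUGagccgugcuacugg
hsa-miR-1269b: cUGGACUGagccaugcuacugg
The members do not share a seed. No other of the 2370 mature names in the RefSeq table has the miR-138-5p seed, and only miR-1269b has that of miR-1269a. Counted from the 5′ end, miR-1269a and miR-1269b differ by the single substitution G13A, with 21 of 22 bases identical, so this assay, named only miR-1269, was not shown to separate them.

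Mature miR-138-5p comes from a pair of genes with the same mature strand and different hairpins, and so its level is the sum of both. The hairpins are shown with the mature strand in capitals, to make plain that what differs lies outside the measured part.
MIR138-1: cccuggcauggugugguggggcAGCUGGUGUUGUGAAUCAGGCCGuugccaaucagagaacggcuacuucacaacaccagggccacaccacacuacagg
MIR138-2: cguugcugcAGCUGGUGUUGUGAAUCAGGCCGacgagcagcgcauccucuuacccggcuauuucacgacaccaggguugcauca
MIR1269A: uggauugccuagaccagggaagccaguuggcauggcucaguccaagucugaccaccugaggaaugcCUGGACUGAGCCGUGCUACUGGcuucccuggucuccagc
MIR138-1 lies at chr3:44114212-44114310 on the plus strand, within the span of the lncRNA gene LOC124909489. MIR138-2 lies at chr16:56858518-56858601 on the plus strand, between NUP93, which ends 8232 bases before it, and SLC12A3, which starts 6606 bases after it. MIR1269A lies at chr4:66276824-66276928 on the plus strand and overlaps no other gene of the annotation, with EPHA5 at 606335 bases as the nearest protein-coding gene before it. The related MIR1269B lies within the span of ARHGAP44, at chr17:12917268-12917342 on the minus strand. The opposite strands, miR-138-1-3p and miR-138-2-3p, would tell the miR-138 genes apart, since 18 of their 22 bases are identical, but neither was analysed here.

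Levels are given first as the deposited dCt, the raw Ct minus a reference constant for the sample and card, where a dCt lower by 1 cycle stands for about 1 log2 unit more RNA. In 2102Ep NC cells, the dCt of miR-138 was 8.25, 7.87 and 8.12 in replicates 1, 2 and 3 (8.08 ± 0.19, SD, n = 3). In 2102Ep siSOX2 cells it was 6.92, 6.50 and 6.46 (6.63 ± 0.26, SD, n = 3). The 3 siSOX2 samples all lay below the 3 NC samples, with 0.947 cycles between the groups. The change was 1.45 ± 0.23 (SE) on the log2 scale, a 2.74-fold higher level, the 15th largest rise of 432 assays.

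In NTera-2 NC cells, the dCt of miR-138 was 12.68 in replicate 1 and 12.28 in replicate 3 (12.48 ± 0.28, SD, n = 2). In NTera-2 siSOX2 cells it was 11.43, 11.02 and 11.20 (11.22 ± 0.21, SD, n = 3). Here too the groups did not overlap, with 0.852 cycles between them. The change was 1.26 ± 0.25 (SE) on the log2 scale, or 2.40-fold, the 9th largest rise of 451 assays, in a fit that dropped the blank NC sample. The blank stands in the raw Ct table as well, and a Ct of 40 in its place gave a change of 5.62, so its treatment decides the size of the value. The changes of the lines differed by -0.19 ± 0.34 (SE, NTera-2 minus 2102Ep), less than the error. Over all assays such a difference was called in 4.42% of 385 by limma, and for the members it is given without a test.

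MiR-1269 stood at a dCt of 3.98, 4.28 and 4.38 in 2102Ep NC cells (4.21 ± 0.21, SD, n = 3). It stood at 2.77, 2.70 and 3.25 in 2102Ep siSOX2 cells (2.91 ± 0.30, SD, n = 3). Every siSOX2 sample was below every NC sample by at least 0.732 cycles. The change was 1.31 ± 0.25 (SE), or 2.47-fold, the 23rd largest rise of 432.

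In NTera-2 the rise of miR-1269 was smaller and rested on a narrow gap. Its dCt was 10.06, 9.38 and 9.74 in NC cells (9.73 ± 0.34, SD, n = 3). In siSOX2 cells it was 9.0, 9.32 and 8.88 (9.06 ± 0.23, SD, n = 3). NC replicate 2 and siSOX2 replicate 2 were only 0.0628 cycles apart. The change was 0.66 ± 0.25 (SE), or 1.58-fold, the 32nd largest rise of 451, and 0.64 ± 0.35 (SE) smaller than in 2102Ep. NC replicate 2 was also the sample with the blank miR-138 value and with the lowest card B Ct of the control RNA RNU44, at 14.0 against 15.9 and 15.7 in the other NC samples. Its part in the result was not tested, and without it the change was 0.84.

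**Figure D1:**
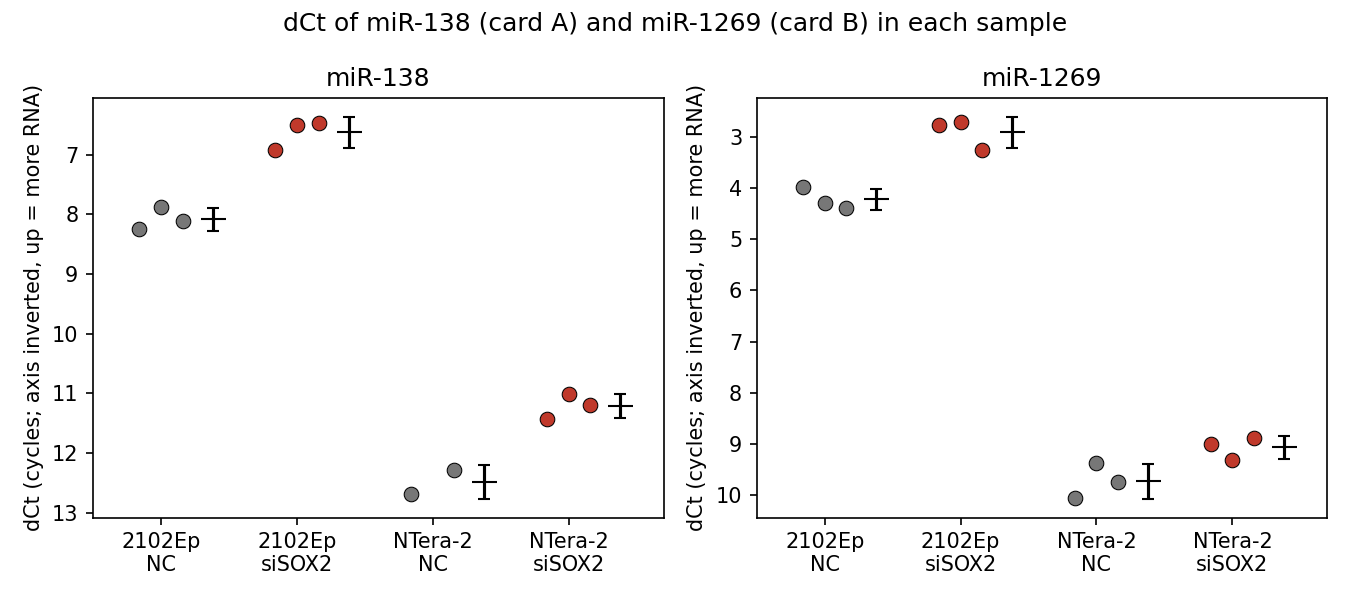
dCt in cycles of miR-138 (left) and miR-1269 (right), with the axis inverted so that more RNA is higher. Grey points are NC and red points siSOX2 samples in the order of the replicate number, and the bar beside each group is its mean ± SD. In all 4 comparisons of siSOX2 with NC the groups do not overlap, and the gap is smallest, 0.0628 cycles, for miR-1269 in NTera-2. The constants differ between the lines, so heights are to be compared within a line.

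The size of the miR-1269 rise in NTera-2 turned on the reference. On card A, which carries miR-138, the constant equalled the mean of miR-16 and U6 in all 12 samples. On card B, which carries miR-1269, it equalled the mean of miR-16-1*, RNU48 and U6 in the NTera-2 samples, but stood amid the assays of the card in all 6 samples of 2102Ep, where 82 assays lay below it and 85 above. In siSOX2 cells of NTera-2 the card B constant was 0.20 cycles lower than in NC cells, whereas the mean of the assays of that card was 0.31 cycles higher. With the mean of the card as the reference in both lines, miR-1269 rose by 1.29 ± 0.26 (SE) in 2102Ep and by 1.17 ± 0.26 in NTera-2, and the changes differed by -0.12 ± 0.36. The groups of NTera-2 were then 0.636 cycles apart. MiR-138 gave 1.51 and 1.45 with the same reference.

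RNU44 and RNU48 gave the other extreme. Their mean Ct on card B was 0.72 cycles higher in siSOX2 than in NC cells of 2102Ep, and 0.13 cycles lower in NTera-2. The latter is uncertain, since its NC samples had an SD of 0.75 and include the low RNU44 value of NC replicate 2. Against them miR-1269 was 1.86 higher in 2102Ep and 0.73 higher in NTera-2, and miR-138 was 1.80 and 1.10 higher. With U6 alone, miR-138 gave 1.49 in 2102Ep and 1.17 in NTera-2, and miR-1269 gave 0.68 in NTera-2, while a U6 value for card B of 2102Ep was not used here. Under each of these references the siSOX2 groups of both members stayed apart from the NC groups. In raw Ct, without any reference, miR-1269 did overlap in NTera-2, at 27.0, 25.7 and 26.5 in NC and 25.3, 26.0 and 25.3 in siSOX2 cells.

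**Figure D2:**
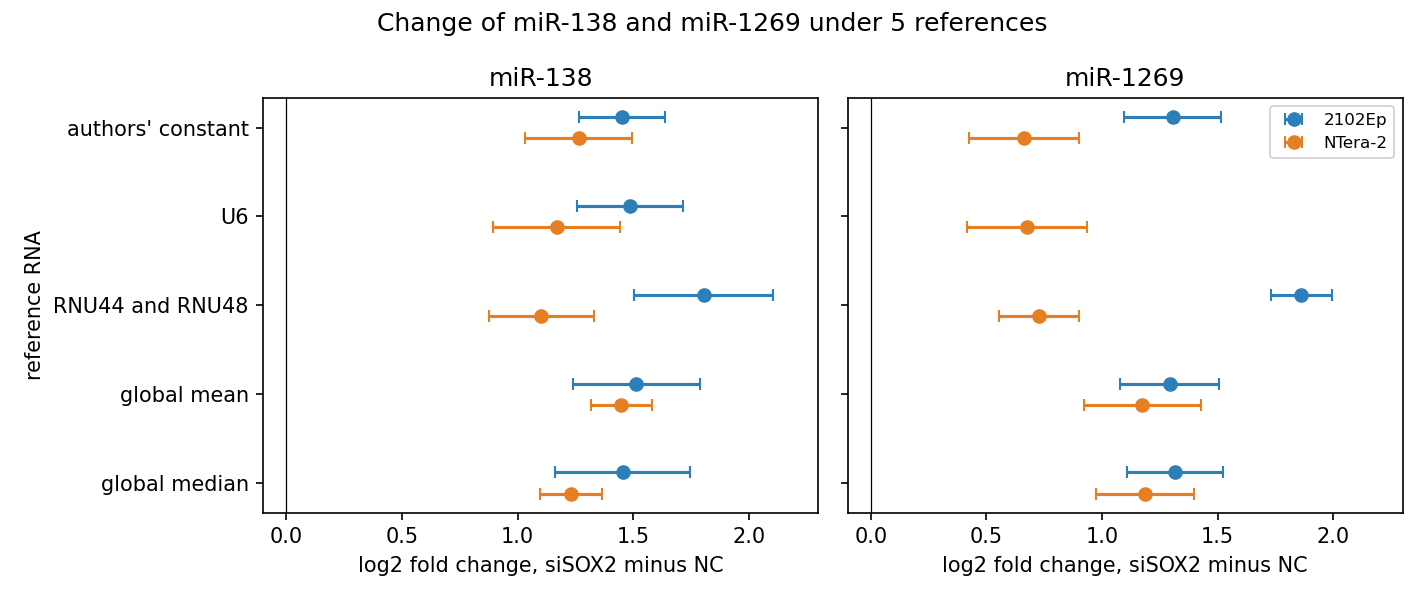
Log2 fold change of siSOX2 over NC for miR-138 (left) and miR-1269 (right) with 5 references, in 2102Ep (blue) and NTera-2 (orange). Points are differences of group means of 3 samples (2 for miR-138 in NTera-2 NC) and bars are standard errors from the SDs of the groups. All values lie above 0, and miR-1269 in NTera-2 lies between 0.66 and 1.19.

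The place of a member among the assays of its card needs no reference. A lower raw Ct is a stronger signal. Of the 224 other card A assays measured in all 12 samples, 79.0%, 69.2% and 74.1% had a lower one than miR-138 in 2102Ep NC samples. In the 2102Ep siSOX2 samples the shares were 63.4%, 56.3% and 54.0%. In NTera-2 these shares were 78.6% and 79.0% in NC and 62.1%, 58.5% and 63.8% in siSOX2 samples. MiR-138 thus moved towards the middle of the card in both lines, and the groups did not overlap. It was picked for this rise, so its places, like those of miR-1269, are a description only. The share of all assays that separate by place was not counted. For miR-1269, among 151 card B assays, the shares were 96.0%, 96.7% and 97.3% in 2102Ep NC and 90.0%, 88.0% and 94.0% in 2102Ep siSOX2 samples, close to the weak end of the card. In NTera-2 they were 76.0%, 66.0% and 72.7% in NC and 60.7%, 60.7% and 58.7% in siSOX2 samples. All 6 NTera-2 samples thus placed miR-1269 nearer the strong end of the card than any 2102Ep sample did.

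In all 4 groups the SD of each member was below the median SD of assays at a like level. Beside the assays of the same card within 1 cycle of its mean Ct, miR-138 had a smaller SD than 46 of 67 such assays in 2102Ep NC and 50 of 62 in NTera-2 siSOX2 samples. MiR-1269 had a smaller SD than 14 of 18 in 2102Ep NC and 33 of 44 in NTera-2 NC samples. The median change of these assays was -0.05 for miR-138 and 0.05 for miR-1269 in 2102Ep. In NTera-2 it was -0.22 and -0.41. In 2102Ep 3 and 2 of these assays rose more than miR-138 and miR-1269, and in NTera-2 1 and 4 did. The members were picked for that rise, so these counts, like the SDs, are a description only.

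Set beside all assays, 4.40% of 432 were called higher in 2102Ep by limma (adjusted p under 0.05) and 9.26% lower, against 1.77% and 3.77% of 451 in NTera-2. Assays higher in siSOX2 without overlap of the groups made up 13.9% in 2102Ep and 6.21% in NTera-2, and 1.56% of the 385 assays tested in both lines, or 6 assays, were so in both. These shares are given for scale only, since the same contrast chose the members. The 6 assays were miR-138, miR-1269, miR-139-5p, miR-145, miR-149 and miR-375, the last 4 named after their values were seen. MiR-375, a miRNA of endocrine cells, changed most, by 3.69 in 2102Ep and 2.68 in NTera-2. MiR-145, known as a repressor of pluripotency factors, gave 0.57 and 1.49, miR-139-5p gave 1.88 and 0.46, and miR-149 gave 0.63 and 0.20. The siSOX2 group of miR-145 held only 2 values in 2102Ep, and its change there did not pass (adjusted p = 0.264 by limma). Likewise miR-139-5p did not pass in NTera-2 (adjusted p = 0.470 by limma), and miR-149 passed in neither line.

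**Figure D3:**
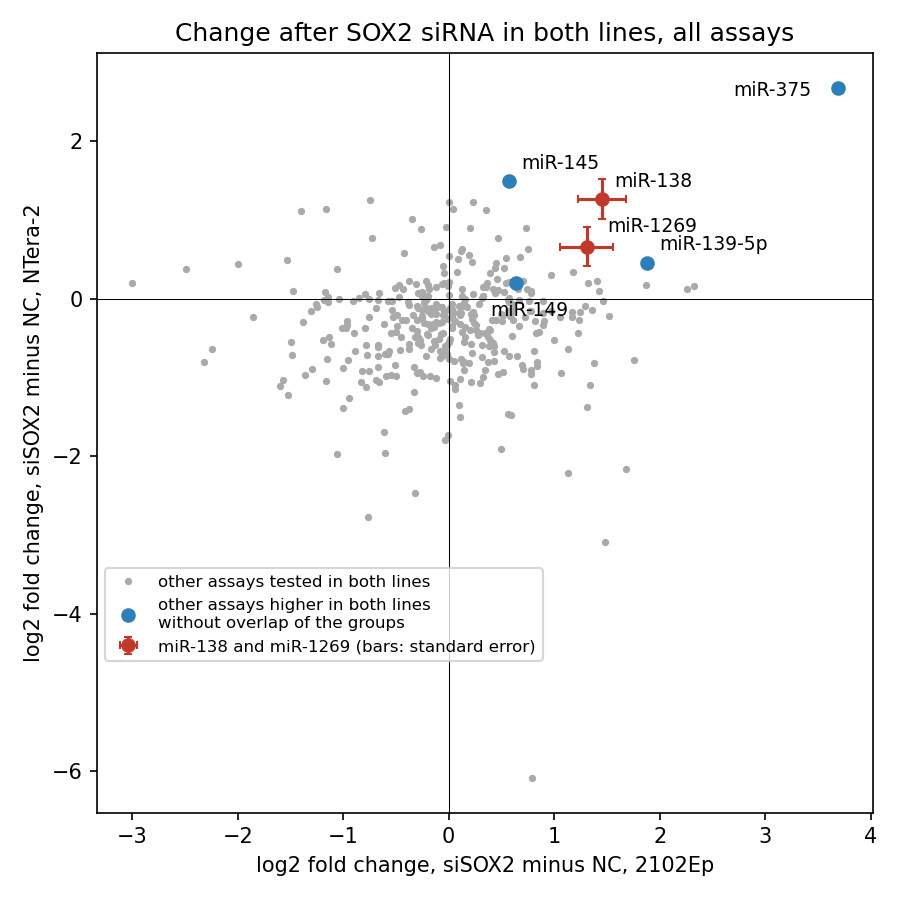
Log2 fold change of siSOX2 over NC in 2102Ep (horizontal) and NTera-2 (vertical) for the 385 assays tested in both lines. Red points are miR-138 and miR-1269 with standard errors, and blue points the 4 other assays that were higher in both lines without overlap of the groups. MiR-138 (1.45, 1.26) and miR-1269 (1.31, 0.66) lie in the upper right, below miR-375 (3.69, 2.68), while the medians of these 385 assays are 0.0050 in 2102Ep and -0.27 in NTera-2.

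The level in one line against the other was not used to choose the members and was tested with limma. Because the deposited constants differ between the lines, minus raw Ct was centred on the mean of each card over the assays measured in all 6 samples compared. On that log2 scale miR-1269 was at -4.48, -4.92 and -5.0 in 2102Ep NC and -2.33, -1.42 and -2.05 in NTera-2 NC cells. The groups lay far apart, and the level was 2.87 ± 0.32 (SE) or 7.30-fold higher in NTera-2 (adjusted p = 0.000253 by limma). In siSOX2 cells it was at -3.49, -3.31 and -3.84 in 2102Ep and -0.72, -0.81 and -0.77 in NTera-2, a difference of 2.78 ± 0.21 or 6.87-fold (adjusted p = 5.08e-05 by limma). Differences were common, with 39.1% of 386 assays higher and 33.2% lower in NTera-2 among NC samples, and 41.3% and 34.5% of 385 among siSOX2 samples. MiR-1269 had the 45th largest excess in NTera-2 in both. This direction depended on the scale, since set against the small RNAs RNU44 and RNU48 the difference was 0.50 in NC (adjusted p = 0.0913) and -0.63 in siSOX2 cells (adjusted p = 0.0668), both by limma, and with the deposited dCt it was -5.51 and -6.16.

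On the scale of the card mean, miR-138 showed the opposite direction at a smaller size. It was at -2.40, -1.67 and -2.14 in 2102Ep NC and at -2.92 and -2.70 in NTera-2 NC cells, without overlap. The difference of -0.74 ± 0.32 (SE) did not pass the threshold (adjusted p = 0.0827 by limma). In siSOX2 cells it was at -0.96, -0.52 and -0.32 in 2102Ep and at -1.41, -1.22 and -1.47 in NTera-2. There it was lower in NTera-2 by 0.76 ± 0.24, or 1.70-fold (adjusted p = 0.0233 by limma). This call was lost with the card median as the reference (-0.32, adjusted p = 0.377 by limma). It was also lost when any 1 of 4 samples was left out: replicate 2 or 3 of 2102Ep siSOX2 (adjusted p = 0.0592 and 0.0516) or replicate 1 or 3 of NTera-2 siSOX2 (adjusted p = 0.0752 and 0.0601). With the deposited dCt the difference of miR-138 was -4.40 in NC (adjusted p = 1.67e-05 by limma) and -4.59 in siSOX2 cells (adjusted p = 1.2e-06). Against RNU44 and RNU48 it was -2.22 (adjusted p = 0.00257 by limma) and -2.92 (adjusted p = 6.63e-05). The contrast with miR-1269 thus depended on the scale. Both members were lower in NTera-2 by dCt, and in siSOX2 cells also against RNU44 and RNU48.

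On the scale of the card mean the order of the levels also differed between the members. MiR-138 was highest in 2102Ep siSOX2, followed by NTera-2 siSOX2, 2102Ep NC and NTera-2 NC cells, at means of -0.61, -1.37, -2.10 and -2.86 relative to the card mean over the assays measured in all 12 samples. MiR-1269 was highest in NTera-2 siSOX2, followed by NTera-2 NC, 2102Ep siSOX2 and 2102Ep NC cells, at -0.77, -1.94, -3.55 and -4.82. No neighbours in either order overlapped in their samples, which is a description only. For miR-1269 the neighbours within a line are siSOX2 and NC cells, the contrast that chose the members. How many of all assays separate in this way was not counted. For miR-138 the smallest gap lay between the NTera-2 siSOX2 and 2102Ep NC samples, at -1.47 and -1.71.

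**Figure D4:**
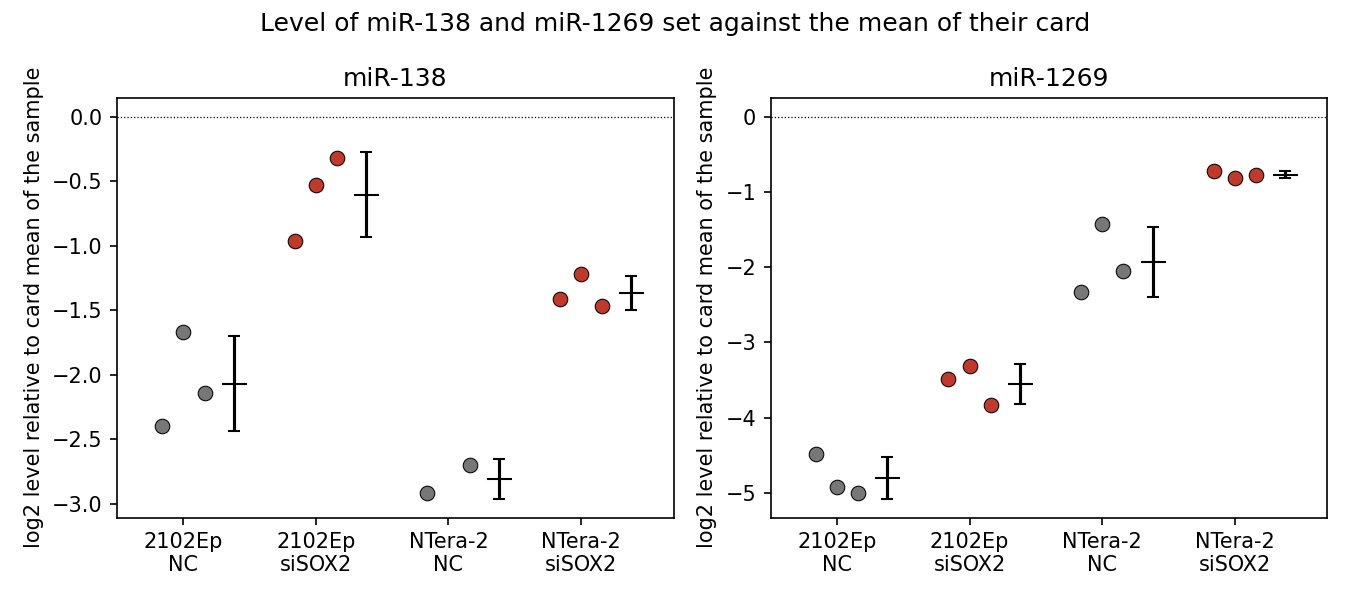
Log2 level of miR-138 (left) and miR-1269 (right) relative to the mean of the card in the same sample, over the assays measured in all 6 NC or all 6 siSOX2 samples. Grey points are NC and red points siSOX2 samples, with mean ± SD beside each group. MiR-1269 is higher in all NTera-2 samples (-2.33 to -0.72) than in all 2102Ep samples (-5.0 to -3.31), while for miR-138 the siSOX2 samples of both lines lie above the NC samples of both lines.

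No other assay of the miR-138 precursors, nor one with a seed shared with either member, was analysed here. Of 30 brain-enriched miRNAs other than miR-138, chosen by textbook knowledge, 27 had an assay, with 28 assays in all. In 2102Ep, 23 were tested and 1 passed as higher, beside 4.40% of all assays. This was miR-9*, a strand of the neural miR-9 precursor, which rose by 2.26 ± 0.22 (adjusted p = 0.000265 by limma). Another 1 passed as lower, beside 9.26% of all assays, namely miR-218, a miRNA of motor neurons, which fell by 0.73 (adjusted p = 0.0118). Their median change was 0.06, against -0.00 over all assays. In NTera-2, 28 were tested, and 1 passed as higher and 2 as lower, beside 1.77% and 3.77% of all assays. There miR-218 rose by 0.77 (adjusted p = 0.0241), while miR-135a fell by 1.42 (adjusted p = 0.0114) and miR-7, known from neuroendocrine cells, fell by 1.18 (adjusted p = 0.0266). With the replicate number as a block, or with the 6 samples of the line fitted alone, 0 of the 28 passed in either direction in NTera-2. The median was 0.03, against -0.27 over all assays. A change above 0 was seen in 13 of 23 assays of the list in 2102Ep and 15 of 28 in NTera-2, beside 50.0% and 28.6% of all assays tested. Most assays of the list are on card A, while shares and medians over all assays pool both cards with their different constants. The fall of miR-218 was lost without 2102Ep NC replicate 1, and its rise without NTera-2 NC replicate 3, siSOX2 replicate 2 or siSOX2 replicate 3. Both also depended on the reference. With RNU44 and RNU48, 0 of the list passed as lower in 2102Ep, and with these or with U6, 0 passed as higher in NTera-2. In NTera-2 1 of the 2 lower assays was left without NC replicate 2, NC replicate 3 or siSOX2 replicate 1. Only 1 was also left with each other reference: U6, the card mean, the card median, or RNU44 and RNU48. MiR-7 is on card B, where changes by dCt lean below 0 in NTera-2, as described below.

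The same was done for the 38 other assays numbered miR-1178 to miR-1305, which like miR-1269 were named late. By limma, 0 of the 34 tested in 2102Ep and 0 of the 37 tested in NTera-2 passed as higher, beside 4.40% and 1.77% of all assays, and 1 and 3 passed as lower, beside 9.26% and 3.77%. At an unadjusted p under 0.05, 1 was higher and 3 were lower in 2102Ep, and 0 were higher and 6 lower in NTera-2. A change above 0 was seen in 20 of 34 and 6 of 37 assays, beside 50.0% and 28.6% of all assays tested. These assays are all on card B, while shares and medians over all assays pool both cards. In siSOX2 cells of NTera-2 the card B constant was 0.20 cycles lower than in NC cells and the card mean 0.31 cycles higher. Changes by dCt thus lean below 0 on this card, and shares over both cards cannot set the list apart from its card. MiR-1180 fell in 2102Ep by 1.36 (adjusted p = 0.0118). In NTera-2, miR-1197 fell by 1.47 (adjusted p = 0.0266), miR-1226* by 1.52 (adjusted p = 0.0393) and miR-1251 by 2.98 (adjusted p = 0.025), and with the replicate block 0 passed there. With the mean of the card as the reference, 0 were lower in NTera-2, as without NC replicate 3 or siSOX2 replicate 2, and 1 was without NC replicate 1 or siSOX2 replicate 1. The median change was 0.04 in 2102Ep and -0.36 in NTera-2.

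The 5 assays with the profile most like a member were found by the root mean square (RMS) difference of their centred dCt over at least 11 samples, as a description of likeness. For miR-138 they were miR-500 (0.51), miR-185 (0.55), miR-628-5p (0.56), miR-885-5p (0.62) and miR-197 (0.64), out of 375 candidates and against a spread of miR-138 itself of 2.29. For miR-1269 they were miR-720 (0.43), miR-26b* (0.46), miR-1260 (0.49), miR-145 (0.52) and miR-1274A (0.54), out of 384 candidates and against 2.97. All but miR-145 were on the same card as the member, where the constant is shared. After centring on the card mean, an alternative chosen after seeing the data, the spreads were 0.83 and 1.56. MiR-500, miR-185 and miR-628-5p stayed among the nearest to miR-138, and miR-720 and miR-26b* among those to miR-1269. These share the card of the member, so the subtracted value cancels and their RMS differences could not change. That they stayed is therefore no check of the likeness, since only assays of the other card could move. The nearest to miR-1269 was then miR-532 (0.39) on card A. The knock-down changes of the nearest assays by dCt varied. MiR-26b* rose by 1.87 in 2102Ep (adjusted p = 0.0164 by limma) and gave 0.17 in NTera-2, and miR-145 rose by 1.49 in NTera-2 (adjusted p = 0.012) and gave 0.57 in 2102Ep. The other 8 did not pass in either line, with miR-197 at 1.17 in 2102Ep and -0.17 in NTera-2, miR-500 at 0.35 and 0.17, and miR-720 at 0.42 and 0.12.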

How the data were processed

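The authors ran TaqMan Array Human MicroRNA cards A and B after pre-amplification, in 12 samples, and the deposited dCt table holds 501 assays (290 of card A, 211 of card B). They deposited raw Ct values and dCt values, both on a log2 scale, and a table of fold changes with p-values from their own comparisons, which was not used. Per the study's methods the array results were analysed in DataAssist, and how the constants were made is not given in the sources used here. From row 106 of the raw table the values of 2102Ep siSOX2 replicate 3 stood 1 row too high and were put back from its dCt. An unnamed control row was taken as U6 of card B, since it completed the NTera-2 constant. Blank dCt values that were true zeros were filled. Ct of 40 or more counted as unmeasured.

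Knock-down changes came from a limma fit (version 3.58.1, under R 4.3.3) to the negative dCt (4 group means over 12 samples, at least 2 measured values per group, Benjamini-Hochberg over all assays). The lines were compared within the 6 NC and the 6 siSOX2 samples after centring per card. The fit was tested on simulated data. Named were the members, assays of their precursors or seeds, listed assays past the threshold, the 5 nearest profiles, and the reference RNAs. The members and lists were chosen with earlier results of these data known. Deviations of same-numbered NC and siSOX2 samples correlated at 0.118, 0.265 and 0.159 in NTera-2 and at 0.156, 0.160 and 0.0396 in 2102Ep. The highest value between differently numbered samples was 0.0538 in NTera-2 and 0.0461 in 2102Ep. These correlations are weak in both lines and do not settle whether the samples are paired. The main fit took them as unpaired, and the replicate block was an alternative. No sample pair held identical values. Alternatives were the reference, unmeasured values, filters on low values, samples in the fit, the spread model, the replicate block and leaving out each sample. The number of samples, 2 or 3 a group, limits the precision.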

Additional observations from a re-analysis of the deposited data

Results flagged for a closer look

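The difference of the knock-down changes between the lines was looked at in 18 named assays, not all of them measured in both lines. These were the listed assays past the threshold in a line and the nearest profiles, without the members. By limma's test of the difference, 3 of them passed. A call in 1 line favours such a difference, so the 4.42% called among 385 assays is given for scale only. MiR-9* gave 2.26 in 2102Ep and 0.12 in NTera-2, a difference of -2.13 ± 0.31 (SE, NTera-2 minus 2102Ep, adjusted p = 0.0049). MiR-218 gave -0.73 and 0.77, a difference of 1.5 ± 0.22 (adjusted p = 0.0049). MiR-1197 gave 0.59 and -1.47, a difference of -2.06 ± 0.47 (adjusted p = 0.0382). These differences are given with the deposited dCt only, and other references or the replicate block were not examined for them. MiR-9* and miR-1197 are on card B, where the constant differs in kind between the lines. On that card the difference of the miR-1269 changes was -0.64 with dCt and -0.12 with the card mean. The same difference for miR-138 and miR-1269 was not tested, because the contrast chose them.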

How the results depend on the processing

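Under every alternative tried that gave a value, both members stayed higher in siSOX2 than in NC cells of both lines. The values that moved by more than the spread between replicates were those with RNU44 and RNU48 in 2102Ep (miR-138 1.80, miR-1269 1.86), those with the card mean or median in NTera-2 (miR-1269 1.17 and 1.19), and that with a Ct of 40 for the blank of miR-138 in NTera-2 (5.62). Leaving out each sample gave 1.37 to 1.60 (miR-138) and 1.20 to 1.48 (miR-1269) in 2102Ep, and 1.17 to 1.37 and 0.50 to 0.84 in NTera-2. MiR-138 has no NTera-2 value without NC replicate 1 or 3, or over assays measured in all 6 samples. With the replicate block the changes were 1.45 and 1.31 in 2102Ep and 1.17 and 0.66 in NTera-2, and the block took away every call of both lists in NTera-2.

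Between the lines, miR-1269 was reversed with the deposited dCt (-5.51 in NC, -6.16 in siSOX2) and with RNU44 and RNU48 in siSOX2 samples (-0.63), and was 0.50 with them in NC samples. The dCt sets a card mid-level in 2102Ep against control RNAs in NTera-2, by its construction. The cause of the RNU44 and RNU48 values was not tested. For miR-138 the NC difference passed the threshold with dCt (-4.40), RNU44 and RNU48 (-2.22) and all 12 samples in the fit (-0.75). Its siSOX2 difference lost it with the card median (-0.32) and the mean of both cards (-0.61). That difference ran from -0.94 to -0.62 when each sample was left out, and was -4.59 with dCt and -2.92 with RNU44 and RNU48. With the replicate number as a block, miR-138 gave -0.54 (NC, adjusted p = 0.213 by limma) and -0.76 (siSOX2, adjusted p = 0.0456 by limma), and miR-1269 2.87 and 2.78, with no call between the lines changed for either. Assays higher in NTera-2 numbered 151 in NC samples, 8 with dCt and 53 with RNU44 and RNU48, and 363 and 230 were then lower. In siSOX2 samples 159 were higher, 6 with dCt and 24 with RNU44 and RNU48, and 367 and 275 were then lower. In the lists, RNU44 and RNU48 gave 3 late-numbered assays higher in 2102Ep, the card mean took the late-numbered assays lower in NTera-2 from 3 to 0, and fitting the 6 NTera-2 samples alone left 0 brain-enriched and 1 late-numbered calls there. With 1 measurement a sample, assay and culture error cannot be told apart.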
